A study of Mus musculus with 13 samples.

Results

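The regulators of mitogen-activated protein kinase (MAPK) signalling described here are 10 genes, chosen by symbol and found in all 3 deposited count tables. The genes are Dusp1, Dusp2, Dusp4, Dusp5, Dusp6, Dusp10, Spry1, Spry2, Spred1 and Gadd45b. They are 10 of the 22048 genes that the tables share and of the 47729 genes listed for the earliest stage. RNA was sequenced in 13 libraries from mouse cells on the path to regulatory T cells (Tregs), CD4 T cells marked by the factor Foxp3. The wild-type groups came from cRel+/+Foxp3rfp mice and the groups called knockout here from cRel-/-Foxp3rfp mice, which lack c-Rel, an NF-kB subunit encoded by Rel; all mice were of the C57BL6/J strain. Both genotypes carried the Foxp3 reporter, and the age of the mice is not given in the sources used here. Thymic pre-Tregs, the precursors, gave 2 wild-type and 3 knockout libraries, thymic de novo Tregs gave 2 and 2, and splenic Tregs gave 2 and 2. CD4 T cells were enriched magnetically and then sorted by flow cytometry. No label ties libraries to separate animals, so each p-value reflects the spread among these libraries, part of which may be technical.

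A T cell receptor signal runs through Ras to the kinase ERK, and in parallel to the kinases JNK and p38. The signal induces its own brakes. Dual-specificity phosphatases, the products of the Dusp genes, remove phosphate from the kinases themselves, whereas Sprouty and Spred proteins act upstream, between receptor and Ras or Raf. Gadd45b is no phosphatase: it is a stress-induced protein, known as an NF-kB target, that binds kinases of the JNK and p38 branches. Tregs form in the thymus after strong receptor signals, and c-Rel is known to be needed for that step.

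Promoter sequences stand here for the 2 members with the largest called genotype differences, Gadd45b and Dusp1, and for Dusp5, the member whose promoter held a serum response element core. They are written 5′ to 3′ on the gene's strand, from RefSeq on GRCm38.p6, where 9 of the 10 genes matched. Capitals mark the cAMP response element TGACGTCA in Dusp1 and a pair of CArG boxes, the cores bound by serum response factor, in Dusp5. No motif searched was found in the Gadd45b window.
Gadd45b, chr10:80929841-80930090, + strand: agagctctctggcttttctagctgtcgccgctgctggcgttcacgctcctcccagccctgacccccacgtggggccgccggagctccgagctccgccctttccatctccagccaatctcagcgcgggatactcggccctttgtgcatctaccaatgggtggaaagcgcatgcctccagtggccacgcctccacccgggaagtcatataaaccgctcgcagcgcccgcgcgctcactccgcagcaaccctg
Dusp1, chr17:26508520-26508722, − strand: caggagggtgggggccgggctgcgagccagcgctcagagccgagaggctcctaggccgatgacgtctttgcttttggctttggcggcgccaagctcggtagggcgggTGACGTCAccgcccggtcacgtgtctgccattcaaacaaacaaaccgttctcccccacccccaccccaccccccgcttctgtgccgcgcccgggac
Dusp5, chr19:53528895-53529108, + strand: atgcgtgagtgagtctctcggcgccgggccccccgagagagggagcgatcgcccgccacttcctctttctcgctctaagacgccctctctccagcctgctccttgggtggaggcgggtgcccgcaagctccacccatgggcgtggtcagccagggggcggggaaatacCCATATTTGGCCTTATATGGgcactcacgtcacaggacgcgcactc
The stretches end where the deposited gene model begins, which left out 47 bases of the Dusp1 window and 36 of the Dusp5 window. On windows of 250 bases, with both strands searched, the cAMP response element occurred in 1.55% of 32851 mouse promoters and in 1 of 9 member promoters, and the CArG box in 1.47% and in 1 of 9. The kB consensus, the NF-kB site, occurred in 7.25% of promoters and in 0 of 9, and the AP-1 site TGANTCA in 6.75% and in 0 of 9. These are letter matches in a short window and say nothing of binding.

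Library totals ran from 13656304 to 29866696 counts in pre-Tregs, from 25122095 to 28235996 in de novo Tregs and from 32291272 to 35114430 in splenic Tregs. Levels are given as normalised CPM, counts scaled by library size and edgeR's TMM factors over the shared genes. The CD4 T cell markers Cd4 (655 to 992 CPM) and Cd3e (785 to 1103 CPM) were read in all 13 libraries. Foxp3, which marks Tregs, held 19.6 to 101 CPM in pre-Tregs and 683 to 924 CPM at the later stages. Of the other Treg markers listed, Il2ra, Ctla4 and Tnfrsf18 were also higher in every later library than in any pre-Treg library. Ikzf2 was not: wild-type pre-Tregs held 428 and 581 CPM, above every later library (170 to 301 CPM). Knockout pre-Tregs held 188, 111 and 165 CPM of Ikzf2, a genotype difference that did not pass the test given below. Rel itself held 103 and 99.2 CPM in wild-type and 54.3, 52.3 and 65.8 CPM in knockout pre-Tregs, 104 and 102 against 92.2 and 102 CPM in de novo Tregs, and 47.3 and 56.7 against 43.5 and 46.1 CPM in splenic Tregs. These gene-level counts do not show whether the reads lie in the altered part of Rel, so they do not check the genotype labels.

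Dusp2 had the highest length-scaled level of the 10 genes in every group and Spry2 the lowest. Levels between genes are compared only as normalised CPM per kilobase of the deposited gene length. In wild-type de novo Tregs Dusp2 held 245 CPM per kilobase (SD 54.5, n = 2), Dusp1 181 (SD 100) and Dusp5 123 (SD 31.0), followed by Dusp4 at 55.6 (SD 6.66) and Dusp10 at 43.7 (SD 3.05). Below them lay Gadd45b at 25.9 (SD 4.60), Spry1 at 25.2 (SD 3.59), Dusp6 at 15.8 (SD 1.51), Spred1 at 2.47 (SD 0.298) and Spry2 at 0.0552 (SD 0.0781). Dusp2, Dusp1 and Dusp5 as neighbours in that order differed by less than the larger of their SDs, as did Gadd45b and Spry1. The order differed by stage: in wild-type pre-Tregs Dusp10 at 64.6 CPM per kilobase (SD 9.17) lay above Dusp1 at 51.1 (SD 11.9), and in wild-type splenic Tregs Dusp10 was at 16.6 (SD 0.178), next to Dusp4 at 18.6 (SD 1.28) and Dusp6 at 18.8 (SD 1.21).

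**Figure D1:**
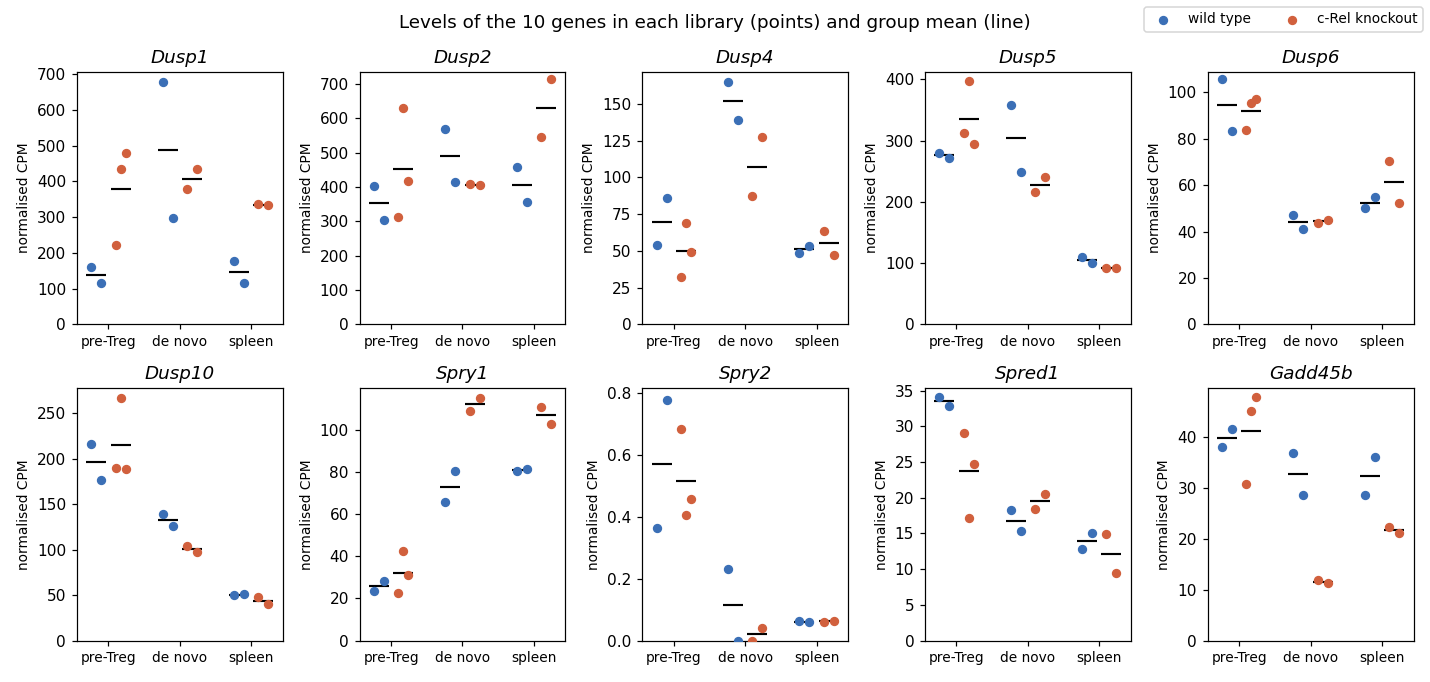
Normalised CPM (y axis, linear, own scale per gene) of the 10 genes by stage (x axis), with 1 point per library, blue for wild type and orange for c-Rel knockout, and a line at the group mean. The knockout de novo libraries hold 11.9 and 11.3 CPM of Gadd45b against 36.9 and 28.7 in wild type, and Dusp5 and Dusp10 lie lower in spleen than in thymus in both genotypes.

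Without c-Rel, Gadd45b was 2.83-fold lower and Dusp10 1.31-fold lower in de novo Tregs, whereas Spry1 was 1.53-fold higher. In splenic Tregs Dusp1 was 2.30-fold higher in knockouts, and in pre-Tregs no member passed the test. A call, and the words rose and fell, need a Benjamini-Hochberg adjusted p under 0.05 in edgeR's quasi-likelihood test over all tested genes, and log2 fold changes set knockouts over wild types, with the fit's standard error (SE). Among de novo Tregs 9 members were tested, since Spry2 did not pass the count filter: 1 was called higher and 2 lower, where 2.92% of the 11855 genes tested were called higher and 3.54% lower. Their median log2 fold change was −0.27, against −0.00268 over all genes tested. In splenic Tregs 1 of 9 was called higher and 0 lower, against 0.612% and 0.758% of 12264 genes, with a median of 0.12. In pre-Tregs 0 of 10 were called, as was 0% of 14746 genes in each direction; 1 member had an unadjusted p under 0.05, DESeq2 called 1 and limma-voom 0. Libraries of a group varied most in pre-Tregs, where edgeR's common coefficient of biological variation was 0.284, against 0.0939 for de novo and 0.131 for splenic libraries. In these bulk samples fewer cells of a type and less RNA per cell cannot be told apart.

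Over all stages, with 1 genotype effect and stage as a covariate, 0 of 10 members were called, against 0.314% of 13058 genes higher and 0.536% lower. Dusp1, Spry1 and Gadd45b were the 3 members with an unadjusted p under 0.05 there, DESeq2 called 1 (Spry1) and limma-voom 0. Whether the genotype difference itself changed with stage was tested jointly over the 3 stages: 0 of 10 members were called, against 0.161% of genes, with 3 at an unadjusted p under 0.05. DESeq2 called 2 in that test, Dusp1 and Gadd45b, and limma-voom 0.

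**Figure D2:**
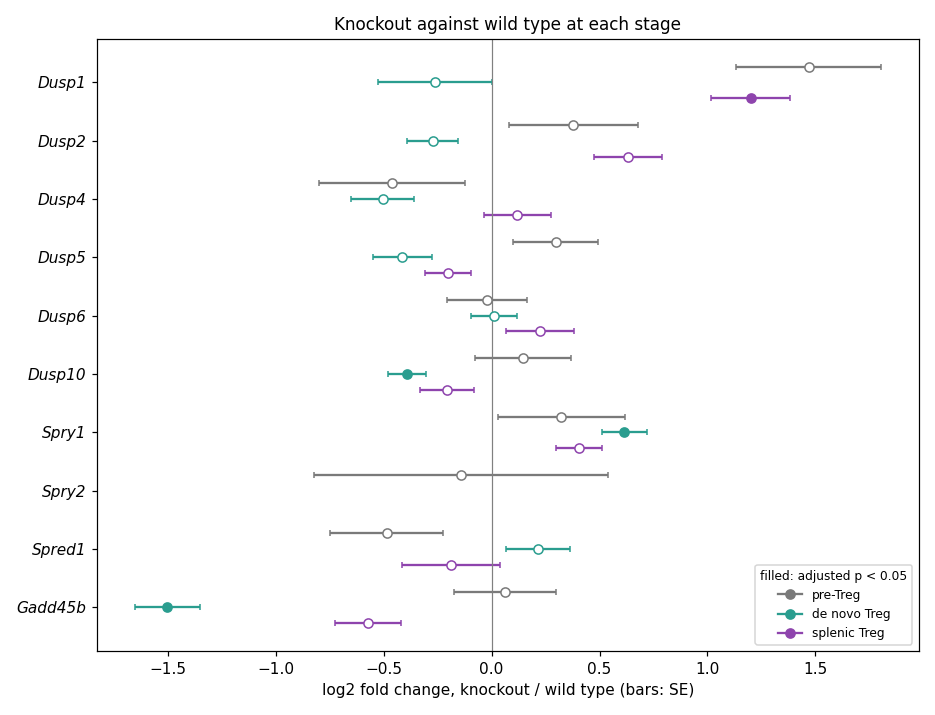
Log2 fold change of knockout over wild type (x axis) for each gene (y axis) in pre-Tregs, de novo Tregs and splenic Tregs, with bars of 1 SE and filled points at an adjusted p under 0.05. Gadd45b lies at −1.50 in de novo Tregs and Dusp1 at 1.20 in splenic Tregs; Spry2 was tested in pre-Tregs only.

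Dusp1 (ENSMUSG00000024190, GRCm38 chromosome 17, 26505590 to 26508519, − strand) encodes an immediate-early nuclear phosphatase of p38, JNK and ERK. Splenic wild-type libraries held 177 and 115 CPM of Dusp1, and splenic knockout libraries 335 and 335. Both knockout libraries were above both wild-type ones, and the difference was 1.20 on the log2 scale (SE 0.18, adjusted p = 0.0317). With a spread shared over the 3 stages the adjusted p was 0.279. In pre-Tregs the wild-type libraries held 161 and 115 CPM and the knockouts 223, 434 and 479. The groups did not overlap there either, but the log2 fold change of 1.47 (SE 0.34) had an adjusted p of 0.575. DESeq2 gave an adjusted p of 0.00740 there, and edgeR 0.000106 over 4 libraries, without knockout replicate 2 and with the numbers in the sample descriptions as a block. In de novo Tregs the groups overlapped: wild-type libraries held 679 and 297 CPM and knockouts 380 and 434. The knockouts lay between the wild-type values (log2 fold change −0.26, SE 0.26, adjusted p = 0.688). Leaving out wild-type replicate 1 turned this to 0.46 (adjusted p = 0.0271), and leaving out wild-type replicate 2 gave −0.74 (adjusted p = 0.000846). The Dusp1 effect in de novo Tregs minus that in pre-Tregs was −1.72 (SE 0.52, adjusted p = 0.281), and splenic minus de novo was 1.46 (SE 0.53, adjusted p = 0.697).

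Dusp1 is itself known to be induced by tissue handling, so other transcripts known for that response were set beside it. Fos, an immediate-early gene, held 14.1 and 11.1 CPM in wild-type and 56.8, 87.7 and 202 CPM in knockout pre-Tregs. Among de novo libraries Fos was high where Dusp1 was: 196 and 25.4 CPM for wild type, 25.5 and 61.3 CPM for knockouts. Jun was not, at 202 and 191 CPM for wild type and 162 and 266 CPM for knockouts. In splenic Tregs Fos held 26.8 and 10.9 CPM in wild type and 29.4 and 15.5 CPM in knockouts, which overlap. The whole list of 16 dissociation stress genes summed to 1868 to 1968 CPM in wild-type and 2043 to 3263 CPM in knockout pre-Tregs, 2780 to 3516 against 2451 to 3149 CPM in de novo Tregs, and 2562 to 2683 against 2523 to 2664 CPM in splenic Tregs. By edgeR 0 of the 16 were called between genotypes in pre-Tregs (6 at an unadjusted p under 0.05) and 0 in de novo Tregs (4), and 2 were called higher in splenic knockouts: the heat shock genes Hspa1b at 2.35 (SE 0.33, adjusted p = 0.0290) and Hspa1a at 2.21 (SE 0.39, adjusted p = 0.0442). Wild-type de novo replicate 1 also stood apart in the erythroid and platelet markers, which summed to 111 CPM there and to 3.09, 0.631 and 0.995 CPM in the other de novo libraries. Among pre-Tregs 3 other marker lists also lay higher in every knockout library than in either wild-type one: thymic stroma (187 to 195 against 210 to 227 CPM), myeloid and dendritic cells (93.0 to 146 against 149 to 209 CPM) and CD8 T and NK cells (73.5 to 79.9 against 82.8 to 129 CPM), with 0 of their genes called. Pecam1 made up most of each pre-Treg stroma sum. It held 178 and 156 CPM in wild types and 171, 185 and 193 CPM in knockouts, which overlap. Cst3 made up most of each pre-Treg myeloid sum, at 83.0 and 103 against 111, 123 and 112 CPM. Lyz2 overlapped between genotypes, whereas Cd68, Tyrobp and Fcer1g were higher in every knockout library. In the CD8 T and NK list Cd8b1 overlapped, at 38.9 and 28.1 against 21.85, 29.9 and 33.7 CPM. Gzma overlapped too, with 27.1 CPM in wild-type replicate 2 and 19.9 CPM in knockout replicate 2, whereas Klrb1c did not. Markers of immature thymocytes summed to 553 to 709 CPM in wild-type and 615 to 1528 CPM in knockout pre-Tregs. In splenic Tregs the B and plasma cell markers summed to 41.0 to 51.5 CPM in wild type and 62.1 to 96.7 CPM in knockouts, with 1 of 6 called higher (Cd79b), and the myeloid markers to 196 to 236 against 145 to 173 CPM. The CD8 T and NK cell markers summed to 62.6 and 63.3 CPM in splenic wild types and 52.7 and 42.3 CPM in knockouts. The thymic stroma list summed to 258 and 233 against 312 and 282 CPM, of which Pecam1 held 226 and 191 against 266 and 234 CPM. In both lists 0 genes were called. The part of stress transcripts, blood cells or these other cells in the Dusp1 values was not tested.

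**Figure D3:**
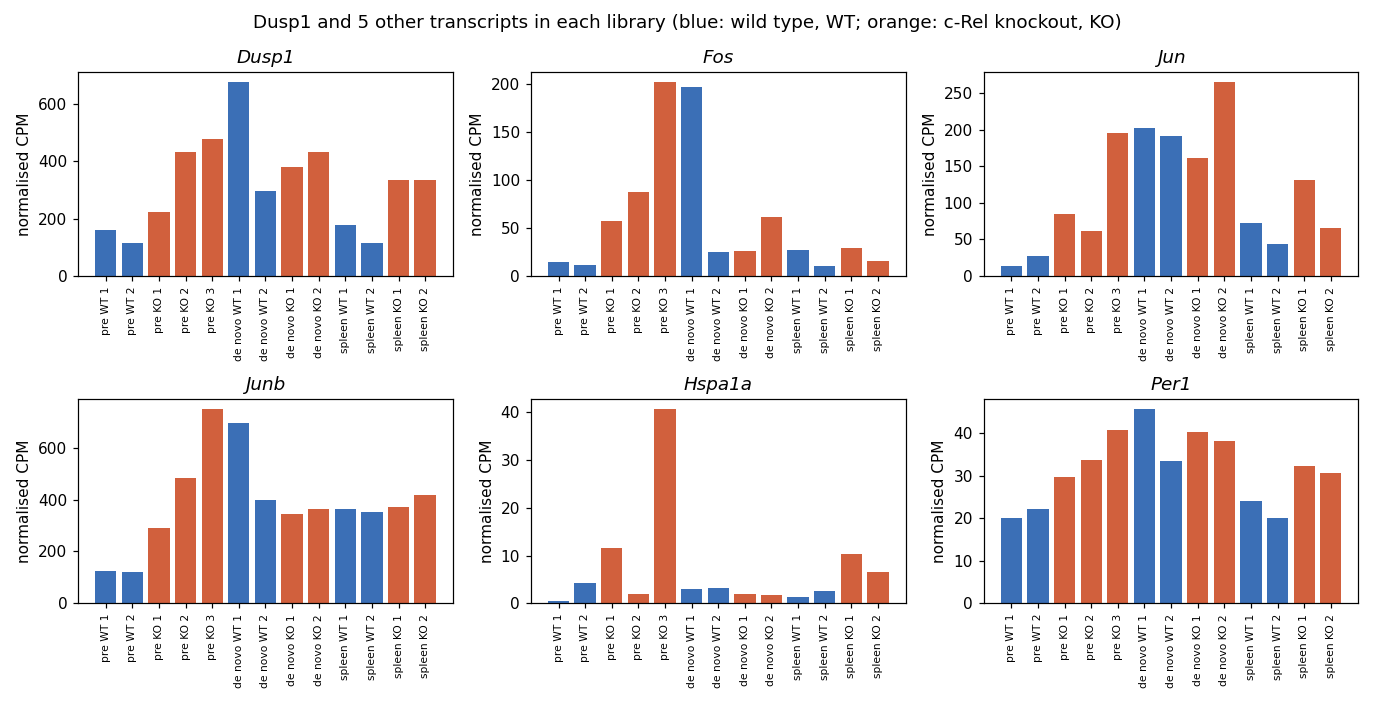
Normalised CPM (y axis, linear from 0) of Dusp1 and of Fos, Jun, Junb, Hspa1a and Per1 in each of the 13 libraries (x axis), blue for wild type (WT) and orange for c-Rel knockout (KO). In de novo Tregs wild-type replicate 1 is the highest of the 4 libraries in Dusp1 (679 CPM), Fos (196 CPM), Junb and Per1. Jun is highest in knockout replicate 2 (266 against 202 CPM in wild-type replicate 1) and Hspa1a in wild-type replicate 2 (3.13 against 2.95 CPM).

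Between stages in wild type, Dusp1 rose from pre-Tregs to de novo Tregs by 1.82 on the log2 scale (SE 0.39, adjusted p = 0.00540) and was lower again in spleen, at −1.74 (SE 0.39, adjusted p = 0.0165). Without de novo replicate 1 both calls were lost, at 1.09 (adjusted p = 0.0729) and −1.01 (adjusted p = 0.237). The first was also lost without pre-Treg replicate 2 (adjusted p = 0.0602), and the second without either splenic library (adjusted p = 0.0575 and 0.190). In the first step 5 of the 16 stress genes rose too, Junb, Jun and Ier2 among them, and 0 fell, where 16.1% of all genes rose and 14.7% fell. The part of the stress genes was not tested. In knockouts neither step was called, at 0.10 (adjusted p = 0.850) and −0.28. Both steps share the de novo libraries. Each stage has its own count table, and spleen is also another tissue, so stage, table and tissue cannot be told apart.

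Dusp2 (ENSMUSG00000027368, chromosome 2, 127336159 to 127338376, + strand), a nuclear ERK phosphatase of activated lymphocytes, was not called in any of the comparisons. Pre-Tregs held 402 and 305 CPM in wild type and 314, 629 and 419 CPM in knockouts. De novo Tregs held 569 and 414 CPM in the wild types and 408 and 406 CPM in the knockouts, and splenic Tregs 457 and 357 against 546 and 715 CPM. In spleen the knockouts lay above the wild types, at 0.63 on the log2 scale (SE 0.16, adjusted p = 0.112). The call moved with single libraries: without splenic wild-type replicate 1 the adjusted p was 0.0141, without knockout replicate 1 or 2 it was 8.17e-05 or 0.0101, and without wild-type replicate 2 it was 0.393, at 0.47. Likewise the de novo difference of −0.27 (SE 0.12, adjusted p = 0.252) became −0.48 (adjusted p = 0.00856) without wild-type replicate 2 and −0.03 (adjusted p = 0.949) without wild-type replicate 1.

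Dusp4 (ENSMUSG00000031530, chromosome 8, 34807297 to 34819894, + strand), a nuclear phosphatase of ERK and JNK, peaked in de novo Tregs. Wild-type libraries held 54 and 85.7 CPM in pre-Tregs, 165 and 139 CPM in de novo Tregs and 48.6 and 53.5 CPM in spleen. Knockout libraries held 32.1, 69.3 and 49.0 CPM, then 87.5 and 127 CPM, then 63.3 and 47.4 CPM. The de novo level was above that of pre-Tregs by 1.12 in wild type (SE 0.31, adjusted p = 0.0191) and 1.09 in knockouts (SE 0.28, adjusted p = 0.0107). The splenic level was below the de novo level in wild type (−1.58, SE 0.32, adjusted p = 0.00950), and in knockouts the value was −0.96 (adjusted p = 0.0638). In de novo Tregs both knockouts lay below both wild types, at −0.51 on the log2 scale (SE 0.15, adjusted p = 0.0727). Without knockout replicate 2 it was −0.79 (adjusted p = 0.000129), and without knockout replicate 1 it was −0.26 (adjusted p = 0.239). The wild-type rise was lost without pre-Treg replicate 1 or either de novo library (adjusted p from 0.0641 to 0.162), the wild-type fall without de novo replicate 1 or either splenic library (0.0792 to 0.101), and the knockout rise without de novo replicate 2 (0.146).

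Dusp5 (ENSMUSG00000034765, chromosome 19, 53529109 to 53542431, + strand), a nuclear phosphatase specific to ERK, whose promoter sequence carried the CArG boxes, fell from thymus to spleen. Its wild-type libraries held 279 and 272 CPM in pre-Tregs, 358 and 249 CPM in de novo Tregs and 110 and 101 CPM in spleen. The knockouts held 313, 397 and 294 CPM, then 217 and 240 CPM, then 92.0 and 91.1 CPM. Every splenic library was below every thymic library. From de novo to splenic Tregs the log2 fold change was −1.53 in wild type (SE 0.18, adjusted p = 0.000480) and −1.32 in knockouts (SE 0.18, adjusted p = 0.000683). In knockouts it had also fallen from pre-Tregs to de novo Tregs (−0.56, SE 0.17, adjusted p = 0.0221), a call lost without either de novo knockout library (0.156 and 0.0801). Between the genotypes Dusp5 was not called at any stage, with −0.41 (SE 0.14, adjusted p = 0.114) in de novo Tregs, which became −0.65 (adjusted p = 0.00228) without wild-type replicate 2, −0.13 (adjusted p = 0.666) without wild-type replicate 1 and −0.48 (adjusted p = 0.0472) without knockout replicate 2.

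Dusp6 (ENSMUSG00000019960, chromosome 10, 99263231 to 99267488, + strand) encodes the cytoplasmic ERK phosphatase and was highest in pre-Tregs. Pre-Treg libraries held 106 and 83.5 CPM in wild type and 83.8, 95.5 and 97.0 CPM in knockouts. De novo libraries held 47.1 and 41.1 against 43.8 and 45.0 CPM, and splenic libraries 50.1 and 54.9 against 70.3 and 52.3 CPM. The 5 pre-Treg libraries lay above all 8 later ones. The step from pre-Tregs to de novo Tregs was −1.10 in wild type (SE 0.17, adjusted p = 0.000884) and −1.06 in knockouts (SE 0.16, adjusted p = 0.000390). Knockouts differed from wild types by −0.02 in pre-Tregs, by 0.01 at the de novo stage (SE 0.11) and by 0.22 in spleen (SE 0.16, adjusted p = 0.582). The splenic value rested on 1 library: it was 0.42 (adjusted p = 0.0107) without knockout replicate 2 and 0.00 (adjusted p = 0.999) without knockout replicate 1.

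Dusp10 (ENSMUSG00000039384, chromosome 1, 184013302 to 184075636, + strand), a phosphatase of JNK and p38, fell at each step in both genotypes. Wild-type libraries held 216 and 177 CPM, then 139 and 126 CPM, then 50.2 and 51.0 CPM. Knockouts held 189, 267 and 189 CPM, then 105 and 97.7 CPM, then 47.6 and 40.2 CPM. Within each genotype the libraries of the 3 stages did not overlap. The steps were −0.57 (SE 0.18, adjusted p = 0.0308) and −1.39 (SE 0.18, adjusted p = 0.000835) in wild type, and −1.09 (SE 0.17, adjusted p = 0.000476) and −1.21 (SE 0.18, adjusted p = 0.00116) in knockouts. The first wild-type step was lost without pre-Treg replicate 1 or either de novo library (adjusted p from 0.0889 to 0.195). Immature thymocyte markers moved with the stages: they summed to 553 to 709, 228 to 246 and 100 to 117 CPM in the wild-type libraries of the 3 stages. In the first step 4 of 8 were called lower, where 14.7% of all genes were. In the second 6 of 8 were, where 3.95% of all genes were. The part of these markers in the Dusp10 steps was not tested. Between de novo genotypes Dusp10 was lower in knockouts, at −0.39 (SE 0.09, adjusted p = 0.0219). This difference was lost without wild-type replicate 1 (−0.32, adjusted p = 0.160), without knockout replicate 2 (−0.34, adjusted p = 0.0723) and with a spread shared over the stages (adjusted p = 0.645). In splenic Tregs it was −0.21 (adjusted p = 0.524), with −0.33 (adjusted p = 0.0413) without knockout replicate 1 and −0.09 (adjusted p = 0.648) without knockout replicate 2.

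Spry1 (ENSMUSG00000037211, chromosome 3, 37639947 to 37644598, + strand), a Sprouty gene, which restrains signalling from receptors to Ras, rose where Dusp10 fell, between pre-Tregs and de novo Tregs. Wild-type libraries held 23.4 and 28.4 CPM in pre-Tregs, 65.8 and 80.5 CPM in de novo Tregs and 80.4 and 81.3 CPM in spleen. Knockouts held 22.6, 42.4 and 31.0 CPM, then 109 and 115 CPM, then 111 and 103 CPM. At both later stages each knockout library was above each wild-type library. The de novo difference was 0.62 (SE 0.10, adjusted p = 0.00465), and with a spread shared over the stages the adjusted p was 0.410. In splenic Tregs it was 0.40 (SE 0.11, adjusted p = 0.126; 0.00814 and 0.00217 without knockout replicate 1 and 2, 0.761 and 0.809 without wild-type replicate 1 and 2) and in pre-Tregs 0.32 (SE 0.29, adjusted p = 0.761). From pre-Tregs to de novo Tregs Spry1 rose by 1.49 in wild type (SE 0.23, adjusted p = 0.000889) and 1.80 in knockouts (SE 0.20, adjusted p = 4.3e-05), and from there to spleen it moved by 0.14 and −0.07, neither called. Spry1 shares exon bases with the antisense gene Gm42922, which had 0 to 5 counts in the pre-Treg libraries; whether the count used strand is not given in the sources used here.

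Spry2 (ENSMUSG00000022114, chromosome 14, 105891949 to 105896819, − strand), a close relative of Spry1 with the same role, was at the limit of detection. Its counts were 5 and 11 in wild-type and 12, 12 and 8 in knockout pre-Tregs, 6 and 0 in wild-type and 0 and 1 in knockout de novo Tregs, and 2 in each splenic library. It was called lower in knockout de novo Tregs than in knockout pre-Tregs (adjusted p = 0.0274). Those later libraries are under the floor of 3 counts, so no fold is given. The call was lost without pre-Treg knockout replicate 1 and without either de novo knockout library.

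Spred1 (ENSMUSG00000027351, chromosome 2, 117121374 to 117182279, + strand), which brings the Ras inhibitor neurofibromin to the membrane, fell from pre-Tregs to de novo Tregs in wild type. The wild-type libraries held 34.1 and 32.9 CPM in pre-Tregs, 18.2 and 15.4 CPM in de novo Tregs and 12.8 and 15 CPM in spleen. The knockouts held 29.1, 17.2 and 24.7 CPM, then 18.5 and 20.5 CPM, then 14.9 and 9.48 CPM. The wild-type step was −1.0 on the log2 scale (SE 0.26, adjusted p = 0.0142), and the knockout step −0.29, not called. It was lost without either pre-Treg wild-type library or without de novo wild-type replicate 2 (adjusted p = 0.0672, 0.0534 and 0.105). The genotype difference was not called at any stage: −0.49 (SE 0.26, adjusted p = 0.724) in pre-Tregs, 0.22 at the de novo stage and −0.19 in spleen.

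Gadd45b (ENSMUSG00000015312, chromosome 10, 80930091 to 80932204, + strand) had the largest called difference between genotypes among the members. De novo wild-type libraries held 36.9 and 28.7 CPM and knockouts 11.9 and 11.3 CPM. The fold change was −1.50 on the log2 scale (SE 0.15, adjusted p = 0.000146), and the call held in every alternative run, each library left out in turn included. Pre-Tregs held 38.1 and 41.6 CPM in wild type and 30.8, 45.0 and 47.8 CPM in knockouts, which overlap (0.06, SE 0.23, adjusted p = 0.942). Splenic Tregs held 28.6 and 36.0 CPM in wild type and 22.3 and 21.1 CPM in knockouts, which do not overlap (−0.57, SE 0.15, adjusted p = 0.130; 0.0112 and 0.0258 without knockout replicate 1 and 2, 0.121 and 0.921 without wild-type replicate 1 and 2). The genotype effect in de novo Tregs minus that in pre-Tregs was −1.55 (SE 0.29, adjusted p = 0.0675), and splenic minus de novo was 0.93 (SE 0.30, adjusted p = 0.518). The joint interaction had an adjusted p of 0.0828, and passed without pre-Treg knockout replicate 1 or replicate 2, and in no other case of 1 library left out.

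Across stages Gadd45b stayed between 28.6 and 41.6 CPM in the wild-type libraries, with steps of −0.29 (adjusted p = 0.308) and −0.02 (adjusted p = 0.970). In knockouts it fell from pre-Tregs to de novo Tregs, at −1.84 on the log2 scale (SE 0.21, adjusted p = 4.4e-05) and rose to spleen by 0.91 (SE 0.21, adjusted p = 0.0148). The rise was lost without any 1 of the 4 knockout libraries of those stages (adjusted p from 0.0650 to 0.111). Marker lists of other cells differed between the same de novo libraries from which Gadd45b, Spry1 and Dusp10 were called. The 9 thymic stroma markers summed to 244 CPM in both wild types and to 327 and 330 CPM in knockouts, with 2 of 4 tested called higher, Epcam and Pecam1. Most of each sum was Pecam1 alone, at 224 and 226 CPM in wild types and 294 and 299 CPM in knockouts. Of the stroma list Krt5 and Col3a1 were at 0 in 12 of the 13 libraries of the study, Krt14 and Foxn1 in 11 and Krt8 in 5. Col1a1 and Aire were read in all of them. Col1a1 held 0.192 and 0.485 CPM in de novo wild types and 0.673 and 0.677 CPM in knockouts. Aire went the other way, at 0.537 and 0.708 CPM in wild types and 0.126 and 0.199 CPM in knockouts, the latter near the floor of 3 counts. The myeloid markers summed to 167 to 169 CPM in wild types and 136 to 157 CPM in knockouts, with 0 of 10 called. Cst3 alone made up most of each myeloid sum, at 146 and 153 CPM in wild types and 140 and 130 CPM in knockouts. The B and plasma cell markers summed to 31.7 to 33.7 against 35.5 to 39.4 CPM, with 1 of 4 called higher and 1 lower. The erythroid markers Hba-a1 and Hbb-bs were called lower in those knockouts. The part of these markers in the Gadd45b, Spry1 and Dusp10 differences was not tested.

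Read by comparison, the step from pre-Tregs to de novo Tregs called 3 of 10 members higher and 3 lower in wild type, where 16.1% and 14.7% of 13058 genes were called. In knockouts it called 2 higher and 5 lower, where 15.4% and 17% of genes were called. From de novo to splenic Tregs 0 members were called higher and 4 lower in wild type (Dusp1, Dusp4, Dusp5 and Dusp10), against 3.5% and 3.95% of genes, with a median of −0.56 against 0.00206 over all genes. In knockouts 1 was called higher and 2 lower, against 6.48% and 6.39%, with a median of −0.17; without pre-Treg knockout replicate 2, which enters through the shared spread, 7 were called.

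**Figure D4:**
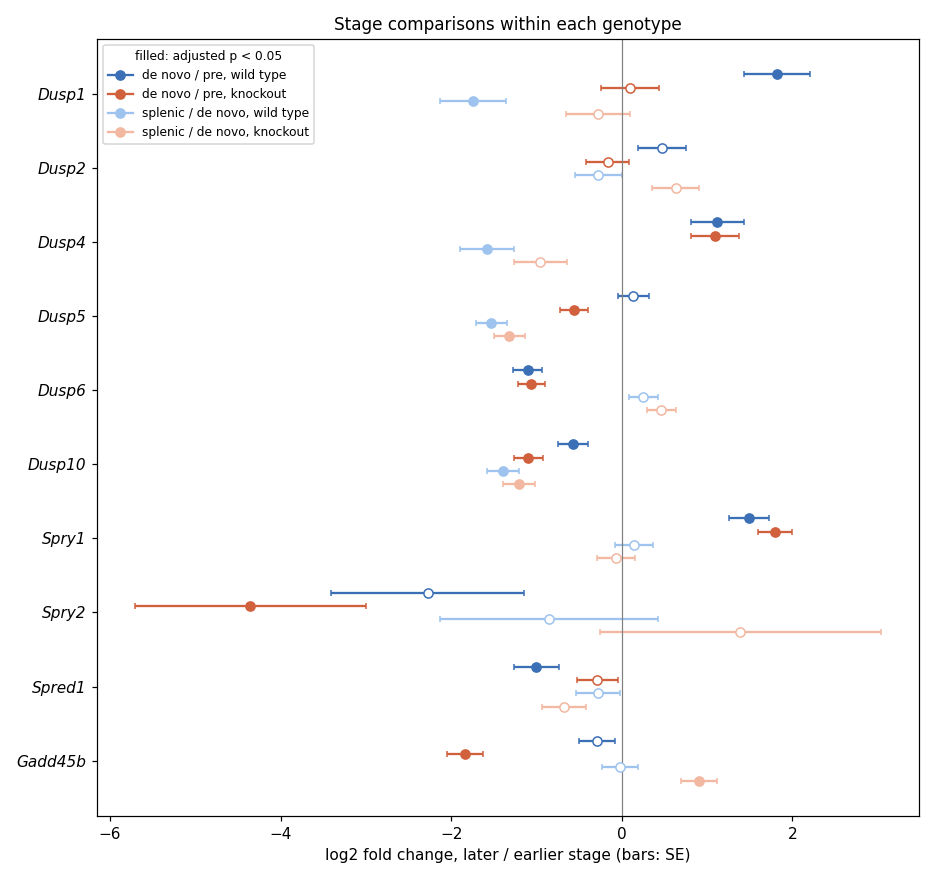
Log2 fold change between consecutive stages (x axis) for each gene (y axis), in wild type and knockout, with bars of 1 SE and filled points at an adjusted p under 0.05. Dusp5 and Dusp10 are lower in splenic than in de novo Tregs in both genotypes (−1.53 and −1.39 in wild type), and Gadd45b differs between the steps in knockouts (−1.84 and 0.91).

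The other genes of the pathway were read from lists chosen by function. Of the other MAPK and dual-specificity phosphatases 13 were tested in de novo Tregs: 1 rose in knockouts, Dusp7 (0.54, SE 0.10, adjusted p = 0.00758), and 2 fell, Dusp14 (−3.12, SE 0.35, adjusted p = 0.000302) and Ptpn5 (−1.36, SE 0.19, adjusted p = 0.00143). Dusp14, known as a negative regulator of T cell receptor signalling, held 4.64 and 5.41 CPM in wild-type and 0.589 and 0.557 CPM in knockout de novo Tregs. In splenic Tregs it held 8.26 and 9.02 against 3.35 and 4.37 CPM, not called. Of the other Sprouty, Spred and Gadd45 genes 1 of 5 was called in de novo Tregs, Gadd45g, lower in knockouts by −0.53 (SE 0.10, adjusted p = 0.0101). It held 56.1 and 62.4 CPM in the wild types and 40.8 and 41.5 CPM in the knockouts. Gadd45g was at −0.68 in splenic Tregs (SE 0.15, adjusted p = 0.0728).

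Over the 6 lists 7 of 99 tested genes were called between de novo genotypes, where 2.92% of all genes were called higher and 3.54% lower. Of the kinases and their partners 0 of 28 Ras and ERK cascade genes rose and 1 fell (Rasgrp4, −0.97, adjusted p = 0.0404), 1 of 20 JNK and p38 cascade genes rose (Map3k5, which encodes the stress kinase ASK, at 1.11, adjusted p = 0.000104), and 1 of 19 proximal T cell receptor genes rose (Fyn, 0.33). By edgeR 0 of 14 transcripts induced by ERK were called there (2 at an unadjusted p under 0.05). Over all 6 lists 0 of 100 genes were called in pre-Tregs (8 unadjusted) and 0 of 100 in splenic Tregs (9 unadjusted). From pre-Tregs to de novo Tregs in wild type, 5 of 15 ERK-responsive transcripts rose and 0 fell. Of all genes 16.1% rose and 14.7% fell there. Myc was at 1.59 and Junb at 2.14. Fos, Fosb, Junb, Ier2 and Egr1 are also in the dissociation stress list, so the counts of both lists are not separate observations. From de novo to splenic Tregs 0 ERK-responsive transcripts rose and 3 fell in wild type, where 3.5% and 3.95% of all genes did. The 3 were Fosl2 at −2.09, Nr4a1 at −1.22 and Phlda1 at −1.04.

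Among the members, levels over the 13 libraries were most alike in Dusp5 and Dusp10 (Pearson r = 0.95 of log2 CPM) and most opposed in Spry1 and Dusp6 (r = −0.83), leaving out Spry2, whose counts are too low to rank. Outside the members, the gene most like Dusp1 among 9655 with a mean of at least 5 CPM was Per1, a circadian clock gene (r = 0.95), at 20.1 to 45.7 CPM. Dusp10 was most like Gtf2ird1, Jup and Sox4 (r = 0.99 each), Spry1 most like Capg, Furin and Ppm1m (r = 0.99 each), Dusp5 most like Pde4d (r = 0.97) and Gadd45b most like Ncl (r = 0.90). These correlations describe 13 libraries that share stage and count table.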

How the data were processed

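RNA sequencing counts of 13 libraries were analysed, 1 count table per stage. The authors deposited raw counts of reads per gene, without normalization; per the submitters' processing notes, the tools included STAR 2.5.2, featureCounts, Subread 1.5.2 and Picard 2.9.0, on GRCm38. Annotation release is not given in the sources used here. Sample titles gave the groups and replicate numbers.

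Each stage was fitted in R 4.3.3 with edgeR 4.0.16 (TMM, filterByExpr at 10 counts per library and 15 in total, quasi-likelihood F-test, Benjamini-Hochberg adjustment over all tested genes, called under 0.05). The all-stage, interaction and stage comparisons used the 22048 shared genes and all 13 libraries, 6 group means in the last of these. The SE is the absolute log2 fold change over the square root of F. Levels are TMM-scaled CPM; 3 counts correspond to 0.0883 to 0.217 CPM, which covers counting error only. Alternatives were DESeq2 1.42.0, limma 3.58.1 (voom), other scalings, no count filter, a shared spread, replicate blocks and leaving out each library. The edgeR script was tested on simulated data. Named genes were all 10 members, at most 3 called genes per list and comparison by adjusted p, and for likeness the 3 most correlated genes per member. Levels of stress, marker and clock genes, and of Gadd45g and Dusp14, were printed after their values were seen. Members and lists were chosen with earlier results of these data known.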

Additional observations from a re-analysis of the deposited data

How the results depend on the processing

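Of 1287 alternative values of 78 member results, 1218 kept their side of the threshold, 33 lost a call and 35 gained one. Sign changes of values called in neither fit are counted among the 1218. Of 24 calls 11 held in every alternative run. In 1 value the sign reversed with a call in 1 of the 2 fits. The reversal was Dusp1 in de novo Tregs without wild-type replicate 1, at 0.46, against −0.26 with all libraries and −0.74 without wild-type replicate 2. The number of members called in pre-Tregs, 0, became 1 with DESeq2 (Dusp1, adjusted p = 0.00740) and stayed 0 without any 1 library. In de novo Tregs 3 calls became 5 with no count filter, 1 with a spread shared over the 3 stages, and 3 to 6 without 1 library (6 without wild-type replicate 2). In splenic Tregs 1 call became 3 with DESeq2, 2 with no count filter, 0 with a shared spread, and 1 to 5 without 1 library (5 without either knockout). Over all stages 0 became 1 with DESeq2 (Spry1), and 0 to 1 without 1 library (Spry1 without pre-Treg knockout replicate 1, Dusp1 at 1.12 without de novo wild-type replicate 1). For the interaction 0 became 2 with DESeq2, 1 with no count filter, and 0 to 1 without 1 library. Leaving out 1 library gave 3 to 6 calls for the wild-type step into de novo Tregs (6 in the fit reported) and 2 to 4 for the step to spleen (4), and 4 to 7 (7) and 2 to 7 (3) for the knockout steps, the 7 without pre-Treg knockout replicate 2. Where a group kept 1 library, it was assumed to vary like the others. The cause of these changes was not tested.

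Deviations of same-numbered libraries, by the titles, from their group means correlated at −0.21 and −0.21 in pre-Tregs, −0.01 in de novo and −0.12 in splenic Tregs. With 2 libraries in a group the deviations mirror each other, so de novo and splenic Tregs give only 1 value each. Whether same-numbered samples were prepared together is not settled by these values. With the replicate block the de novo count was 5 (Dusp4 and Dusp5 added), the splenic count 1 and the pre-Treg count 0. With a replicate block by the numbers in the sample descriptions, which differ from the titles for knockout pre-Tregs, the pre-Treg count was 1 (Dusp1). That fit also leaves out knockout replicate 2, whose description has no number, so it changes both the block and the libraries; leaving out that library alone gave 0. Depth limits Spry2, which had 0 to 12 counts per library.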
